A study of Homo sapiens with 8 samples.

Results

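MYC, MYB and the regions around them were examined in maps of open chromatin from U-937, an established human leukaemia cell line of the monocytic lineage. The regions were all the called peaks from 500 kb upstream to 2 Mb downstream of the MYC transcription start, and all those within 150 kb of the MYB gene body. After peaks that overlapped were joined across the 4 deposited lists, 189 regions lay in the MYC window and 67 in the MYB window, so that 256 of 161291 regions of the genome were members. The members were chosen by position alone. In the GENCODE annotation of hg38, MYC (ENSG00000136997.22) lies at chr8:127735434-127742951 and MYB (ENSG00000118513.20) at chr6:135181308-135219173, both on the plus strand.

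The assay was ATAC-seq, where Tn5 transposase places sequencing adapters in accessible DNA. Cultures were given the vehicle DMSO, ATRA at 0.1 µM, Corin at 0.1 µM, or ATRA plus Corin (the combination) with 0.1 µM of each, and were collected after 24 h. ATRA, all-trans retinoic acid, activates retinoic acid receptors. Corin blocks both enzymes of the CoREST co-repressor complex, a histone demethylase and a histone deacetylase. Each group had 2 samples of the same cell line, and no genetic change is given in the labels. The authors gave 1 list for each group, so no value here has a spread between samples, no difference could be tested and no p-value is given. Every comparison with a treatment uses the same DMSO list.

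MYC is a transcription factor that binds with its partner MAX and drives growth, ribosome production and division. In blood cells it is controlled over a very long distance, by elements in PVT1 and by a cluster of enhancers in and near CCDC26, both long non-coding RNA genes downstream of it. MYB is a transcription factor that keeps blood progenitors immature, and its distal enhancers lie between HBS1L and MYB, in its own introns, and towards AHI1. Both genes are commonly shut down when myeloid leukaemia cells differentiate.

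The windows hold mostly distal elements. Of the 189 summits near MYC, 63 lay in CCDC26 and 56 in PVT1, 34 lay outside genes, and 27 were within 1 kb of an annotated transcription start. Of the 67 summits near MYB, 37 lay outside genes, 13 lay in AHI1 and 6 were within 1 kb of a start. Median GC content over 200 bp at the summit was 47.5% near MYC and 44% near MYB, against 49.5% over all regions.

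The 5 sequences that follow are 200 bases of the hg38 plus strand, written 5′ to 3′ and centred on the strongest summit of a MYB region. They are from regions whose signal the MYB results turn on, and they were chosen after their values were seen. Capitals mark motif matches on either strand. The letters searched were TTGCNNAA for C/EBP, TGANTCA for AP-1, CAACNG for MYB, TGTGGT for RUNX, AGATAA for GATA and GAGGAAGT for PU.1. The first sequence has C/EBP and AP-1 matches, the second has RUNX, C/EBP, GATA and MYB, the third has PU.1 and RUNX, the fourth has MYB, and the fifth has PU.1. The first was called only with ATRA and with the combination, and the others in all 4 lists.
MYB 63.5 kb upstream, chr6:135117733-135117932: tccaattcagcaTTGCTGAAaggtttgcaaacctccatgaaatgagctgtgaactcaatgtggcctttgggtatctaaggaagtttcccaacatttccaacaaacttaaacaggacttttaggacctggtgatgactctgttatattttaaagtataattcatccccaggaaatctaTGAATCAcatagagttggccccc
MYB 14.4 kb downstream, chr6:135195635-135195834: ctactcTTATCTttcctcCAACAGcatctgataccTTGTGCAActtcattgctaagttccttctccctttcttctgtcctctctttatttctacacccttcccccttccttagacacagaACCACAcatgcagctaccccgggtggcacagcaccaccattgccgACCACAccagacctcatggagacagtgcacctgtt
MYB 28.6 kb downstream, chr6:135209849-135210048: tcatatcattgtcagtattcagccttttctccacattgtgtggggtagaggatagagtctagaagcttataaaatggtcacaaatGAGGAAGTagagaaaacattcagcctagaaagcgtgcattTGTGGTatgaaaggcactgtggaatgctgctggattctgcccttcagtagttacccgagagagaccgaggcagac
MYB 52.8 kb downstream, chr6:135233976-135234175: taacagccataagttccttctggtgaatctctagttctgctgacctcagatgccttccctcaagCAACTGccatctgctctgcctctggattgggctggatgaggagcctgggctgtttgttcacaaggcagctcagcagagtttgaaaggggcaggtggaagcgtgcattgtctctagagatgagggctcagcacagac
MYB 125.6 kb downstream, chr6:135306812-135307011: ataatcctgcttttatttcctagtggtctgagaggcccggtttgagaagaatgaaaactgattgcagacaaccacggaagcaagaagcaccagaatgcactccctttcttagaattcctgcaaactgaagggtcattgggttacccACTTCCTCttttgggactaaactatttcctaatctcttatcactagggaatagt

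Each peak carries the authors' fold, the ratio of the reads piled up at the summit to a local background. The pileup and the background were solved from the fold and its −log10 p, since a broad rise in openness lifts both and can leave the fold unmoved. A ratio between 2 lists was centred, that is, divided by the median ratio over all regions called in both, because the lists differ as wholes. That median ratio to DMSO on the fold scale was 1.26 in the ATRA list, 0.943 in the Corin list and 1.02 in the combination list. For the pileup, taken relative to the most frequent background of its list, it was 1.51, 0.89 and 1.03. The strength of a region is given as its place in its list by −log10 p, so that a place in the strongest 10% is high. Promoters of 8 of 11 myeloid marker genes were open in all 4 lists, with MPO and CD14 open in none and FCGR1A open only with Corin. T cell CD3D, CD3E and CD3G, B cell MS4A1 and erythroid KLF1 and HBB were open in none, while 2 of 5 T cell, 4 of 5 B cell, 1 of 5 erythroid and 2 of 4 epithelial marker promoters were open in all 4 lists. In the order given, from myeloid to epithelial, these shares were 72.7%, 40%, 80%, 20% and 50%. Of all coding genes, 66.1% had a promoter open in all 4 lists.

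**Figure D1:**
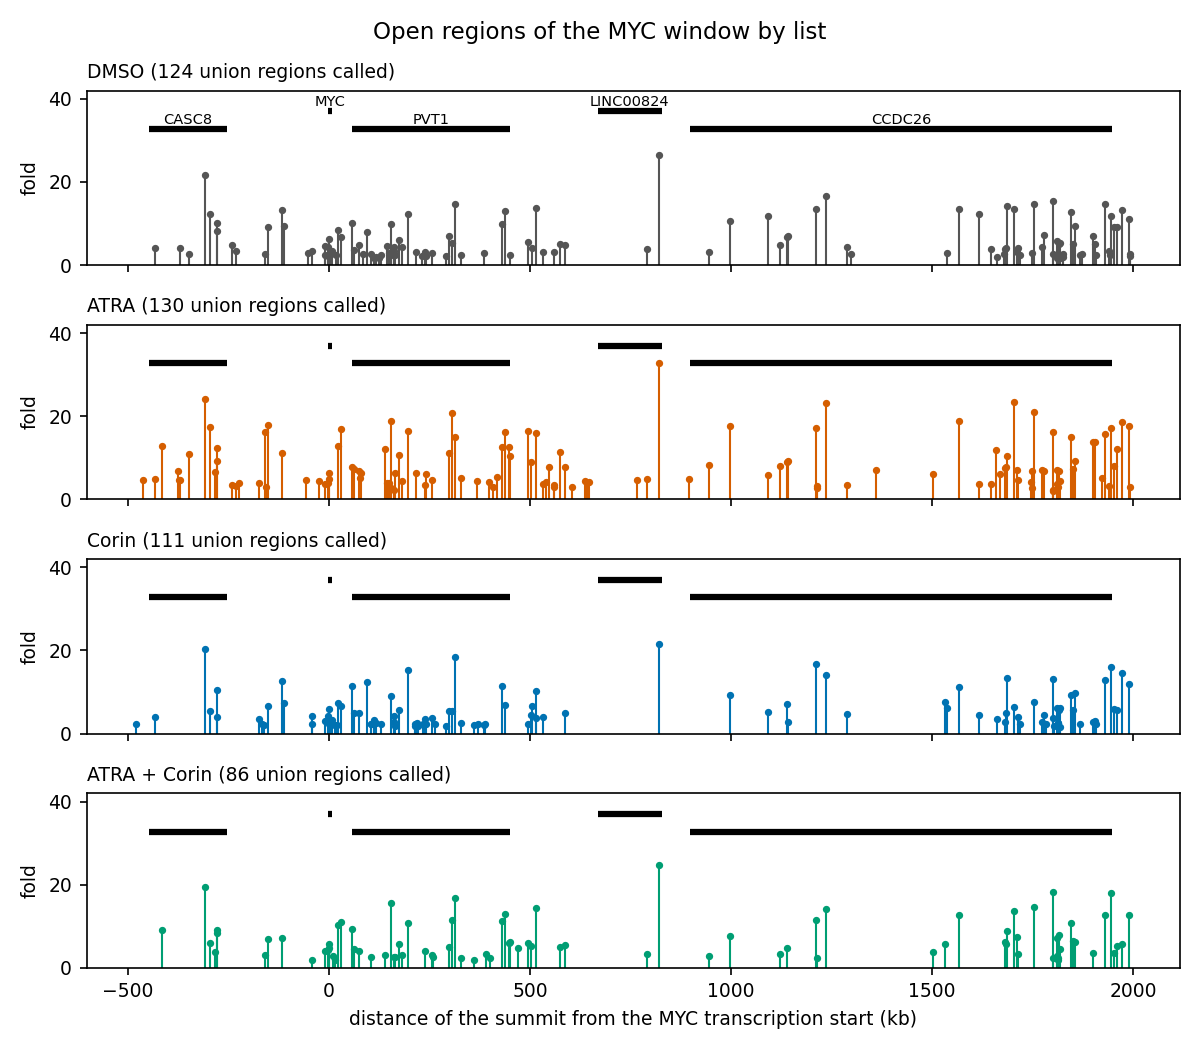
Fold over local background (vertical axis) of each region of the MYC window against the distance of its summit from the MYC transcription start in kb (horizontal axis), with 1 panel for each list and black bars for genes. Tall regions recur at the same places in all 4 panels, and the combination has the fewest regions, 86 of the 189, against 124 with DMSO. It has the fewest over the genome too, 57.8% of all regions against 70.5% with DMSO. Neighbouring regions of a list that join into 1 across lists are drawn as 1.

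The MYC promoter stayed open in every list. Its region, at chr8:127735030-127736840, had a fold of 6.15 with DMSO, 6.25 with ATRA, 5.82 with Corin and 5.64 with the combination. The pileup at its summit was 1318, 1139, 1154 and 1124 over a local background of 214, 181, 197 and 198. That background was far above the most frequent one of the lists, which was 12.8, 9.12, 13.1 and 13.9, so the fold at the gene is small although the region lay in the strongest 7.83%, 12.2%, 11.1% and 16% of its lists. The centred pileup was 0.805 times DMSO with ATRA, 0.959 times with Corin and 0.764 times with the combination, within the limit of 1.5 times used here to call a ratio.

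The first intron of MYC was more open with ATRA. A region whose summit lay 1.6 kb downstream of the start, at chr8:127736940-127738395, covers intron 1 of the main transcript, between exon 1, which ends at 127736623, and exon 2, which starts at 127738248, and reaches into exon 2. Its summit was 46 bp from the start of another annotated MYC transcript. Its fold was 2.03 with DMSO, 4.84 with ATRA, 2.28 with Corin and 4.84 with the combination, and its pileup was 474, 908, 478 and 975. Both lists with ATRA were high and both without it were low. The exact 95% Poisson interval of the pileup was 432 to 519 with DMSO and 850 to 969 with ATRA, which covers counting error only. After centring, the fold was 1.89 times DMSO with ATRA, 1.19 times with Corin and 2.34 times with the combination, and the pileup was 1.78, 1.1 and 1.84 times DMSO.

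At the 3′ end of MYC the order was the other way. A region 6.9 kb downstream of the start, at chr8:127742641-127743543 across the end of the last exon and with its summit just past the gene, had a fold of 3.43 with DMSO and 3.18 with Corin and was not called with ATRA or the combination. The region next to it, 5.9 kb downstream and inside the last exon, had 2.54 and 2.18 and was also called only with DMSO and Corin; it was chosen after its values were seen. A region 2.0 kb upstream of the start, near the start of CASC11, held a CTCF motif match and differed little, with a fold of 4.26, 3.97, 4.28 and 4.36.

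PVT1 held regions of both kinds. Its promoter region, 58.3 kb from MYC and known to compete with MYC for enhancers, had a fold of 10.1 with DMSO, 7.73 with ATRA, 11.4 with Corin and 9.46 with the combination. After centring, that was 0.608 times DMSO with ATRA, past the limit on the low side, 1.2 times with Corin and 0.92 times with the combination. The region 95.5 kb downstream, in a PVT1 intron with an AP-1 match, had 7.94 with DMSO and 12.4 with Corin and was not called in either list with ATRA. The PVT1 region 139.5 kb downstream was called only with ATRA, at 12.2, and with the combination, at 3.2.

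Further into PVT1 a region 306.2 kb downstream had the highest centred ratio of ATRA to DMSO on both scales among the 58 MYC regions called in all 4 lists; it was chosen after its values were seen. Its fold was 5.21 with DMSO, 20.7 with ATRA, 5.36 with Corin and 11.6 with the combination, and its pileup was 115, 536, 110 and 254. The combination lay between DMSO and ATRA. The neighbouring region 313.1 kb downstream, at an internal PVT1 start, lay in the strongest 4.39%, 3.27%, 3.59% and 4.58% of its lists. It was the strongest of the MYC window in the 3 treated lists and came after the region 1930.2 kb downstream with DMSO. Its fold was 14.7, 15.1, 18.5 and 16.9, and its centred pileup was 1.22, 1.11 and 1.15 times DMSO with ATRA, Corin and the combination.

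Other distal regions near MYC were higher with ATRA. The region 23.5 kb downstream of MYC had a fold of 8.39, 12.9, 7.39 and 10.4. Its pileup was 422 with DMSO, 843 with ATRA, 298 with Corin and 590 with the combination. After centring, its fold was 1.22 times DMSO both with ATRA and with the combination, within the limit of 1.5 times. Its centred pileup was 1.86 times DMSO with ATRA, past the limit, and was within the limit with the combination. The regions 447.4 kb and 449.9 kb downstream lay at the far end of PVT1. Their fold was 12.5 and 10.5 with ATRA and 5.96 and 6.16 with the combination. Neither was called with Corin, and with DMSO the first was absent and the second had 2.39. Upstream of MYC, a region at 159.6 kb with a PU.1 match had 2.61 with DMSO, 16.1 with ATRA and 3.08 with the combination and was not called with Corin. A region 413.7 kb upstream, near a PCAT1 start, was called only with ATRA, at 12.9, and with the combination, at 9.11.

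The region 515.1 kb downstream, between PVT1 and LINC00824, differed more on the pileup scale than on the fold scale. Its fold was 13.8 with DMSO, 15.9 with ATRA, 10.3 with Corin and 14.3 with the combination, and after centring 0.916, 0.793 and 1.02 times DMSO. Its pileup was 418, 972, 218 and 688 while the background under it was 29.4, 60.1, 20.3 and 47.0. The centred pileup was therefore 2.17 times DMSO with ATRA, 0.571 times with Corin and 1.47 times with the combination. The highest fold of the window stood in LINC00824, 820.7 kb downstream, at 26.4, 32.9, 21.6 and 24.7, and its centred pileup was within 1.5 times DMSO in the 3 treated lists.

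The far downstream cluster, from 1.5 to 2 Mb, held 56 of the 189 regions. Of these, 46 were called with DMSO, 40 with ATRA, 37 with Corin and 28 with the combination, which is 82.1%, 71.4%, 66.1% and 50%. Over the genome the lists held 70.5%, 68.6%, 61.5% and 57.8% of all regions. On the pileup scale the median centred log2 ratio to DMSO there was -0.21 with ATRA, -0.02 with Corin and -0.43 with the combination. Of the 26 regions called with both DMSO and the combination, 12 were at least 1.5 times lower and 1 was at least 1.5 times higher on that scale, against 19.4% and 12.5% over the genome. On the centred fold scale 6 of the 26 were lower and 4 higher, against 12.1% and 8.26%, with a median log2 ratio of -0.12.

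Within that cluster the region 1855.6 kb downstream of MYC, at chr8:129591367-129592828 in a CCDC26 intron, differed most on the pileup scale; it was chosen after its values were seen. Its pileup was 1004 with DMSO (95% interval 943 to 1070), 405 with ATRA (367 to 446), 911 with Corin (853 to 972) and 170 with the combination (145 to 198). The centred pileup was 0.376 times DMSO with ATRA, 0.993 times with Corin and 0.152 times with the combination. The fold, 9.48, 9.24, 9.77 and 6.3, differed less, and the local background was 105, 42.9, 92.3 and 29.7. From the DMSO list to the combination list the region went from the strongest 7.25% to the strongest 47.4%.

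Some of its neighbours were lower in the combination too. The region 1930.2 kb downstream had a pileup of 1097, 1009, 837 and 608, and its centred log2 ratio was -0.22 with ATRA, -0.26 with Corin and -1.01 with the combination. Its fold was 14.8, 15.7, 13 and 12.8, and after centring 0.843 times DMSO with the combination, within the limit. For the region 1972.0 kb downstream the fold was 13.3, 18.5, 14.6 and 5.82, lowest with the combination, and the pileup was 271, 193, 291 and 86. Its centred pileup was 0.664 times DMSO with ATRA and 0.284 times with the combination, both past the limit. At 1951.4 kb the fold before centring was 9.17, 7.91, 5.87 and 3.68, lowest with the combination. At 1845.8 kb the pileup was 632, 693, 365 and 334, low in both lists with Corin.

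Other elements of the cluster differed less from DMSO. The region 1799.8 kb downstream, with AP-1 and C/EBP matches, had a fold of 15.3, 16.1, 13.2 and 18.3 and a centred pileup within 1.5 times DMSO in each treated list. The region 1816.3 kb downstream had a pileup of 709, 833, 683 and 836. At 1946.0 kb, beside a CCDC26 start, the pileup was 321, 296, 396 and 377, and the centred pileup was 0.859, 1.35 and 1.05 times DMSO. Elsewhere from 1.5 to 2 Mb, the fold at 1900.0 kb was 7.03 with DMSO, 13.7 with ATRA, 2.76 with Corin and 3.48 with the combination, so both lists with Corin were low. At 1616.9 kb, with an AP-1 match, it was 12.3, 3.76 and 4.53, and the region was absent from the combination.

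**Figure D2:**
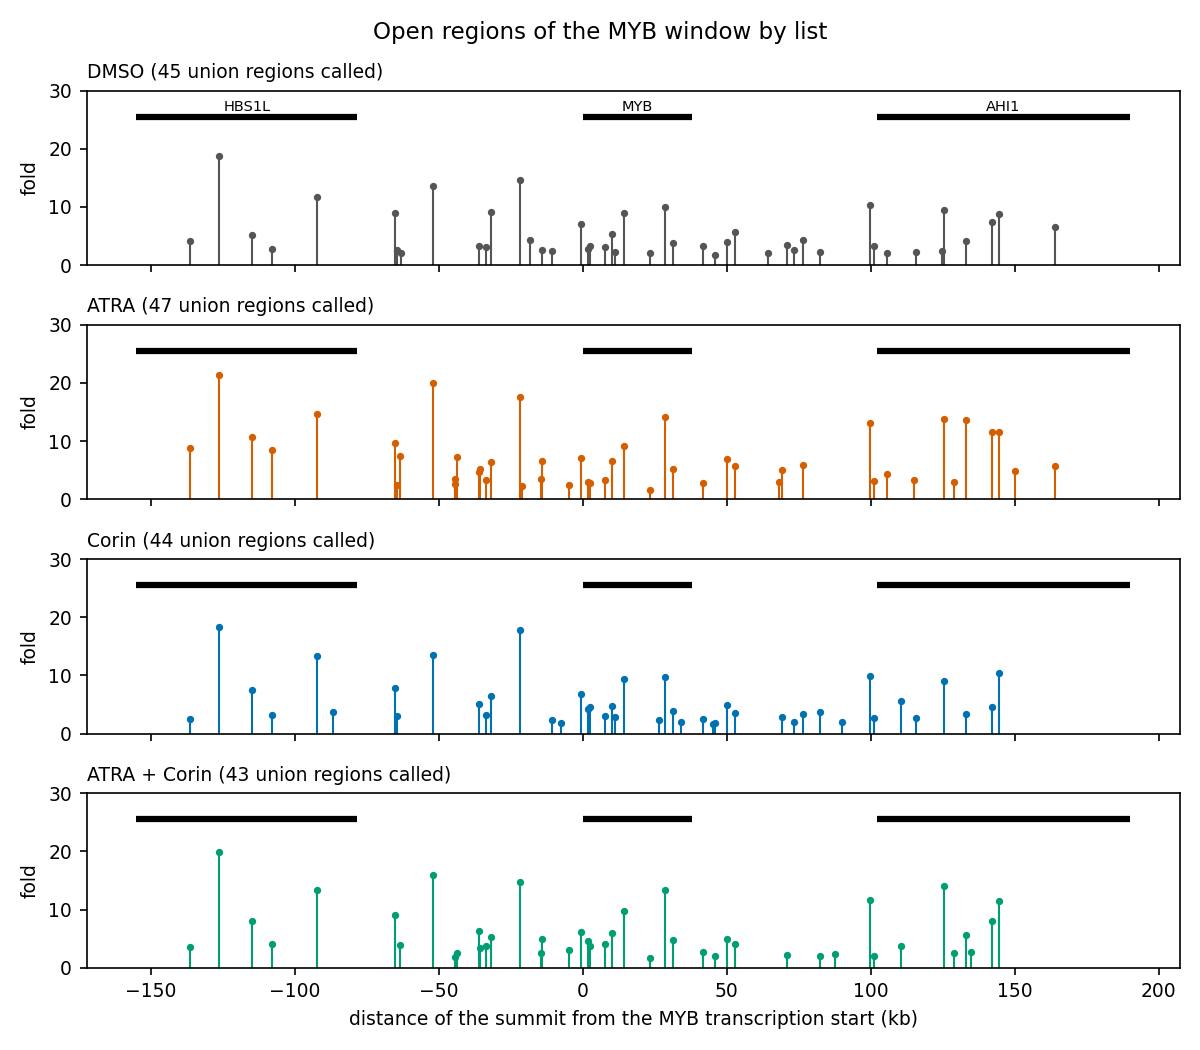
Fold over local background (vertical axis) of each region of the MYB window against the distance of its summit from the MYB transcription start in kb (horizontal axis), with 1 panel for each list and black bars for genes, drawn only to the edge of the window for HBS1L and AHI1. The panels hold 45, 47, 44 and 43 of the 67 regions, and the tallest is the HBS1L promoter in each. Over the genome the same lists hold 70.5%, 68.6%, 61.5% and 57.8% of all regions.

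The MYB promoter also stayed open. Its region, at chr6:135180263-135181613, had a fold of 6.98 with DMSO, 7.03 with ATRA, 6.74 with Corin and 6.17 with the combination and a pileup of 964, 1010, 955 and 1116. The centred pileup was 0.976, 1.08 and 1.04 times DMSO, so the 4 lists were close on that scale. The strongest summit lay 0.72 kb upstream of the start in the ATRA list and 0.11 kb upstream in the others, a distance of 616 bp.

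The first intron of MYB was more open with Corin. The region 1.8 kb downstream of the start, at chr6:135182388-135183421, lies between exon 1, which ends at 135181536, and exon 2, which starts at 135185903, and 75% of its 200 bases at the summit were G or C. Its fold was 2.8 with DMSO, 2.92 with ATRA, 4.19 with Corin and 4.69 with the combination, and its pileup was 381, 408, 577 and 802. Both lists with Corin were high, and ATRA alone was close to DMSO. After centring, the pileup was 0.998 times DMSO with ATRA, 1.66 times with Corin and 1.89 times with the combination, and the fold 0.826, 1.59 and 1.64 times.

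The next region of that intron, 2.7 kb downstream, had a fold of 3.29, 2.88, 4.51 and 3.7, highest with Corin. A region 11.2 kb downstream, over exon 6, had 2.32 with DMSO and 2.88 with Corin and was not called in the lists with ATRA. Deeper in the gene the levels were more even. The region 14.4 kb downstream, which holds matches for RUNX, C/EBP, GATA and MYB, had 8.95, 9.24, 9.32 and 9.69. The one 28.6 kb downstream, with PU.1 and RUNX matches, had 9.92, 14.2, 9.68 and 13.3, higher before centring in both lists with ATRA. After centring, its fold was within 1.5 times DMSO in both. Its centred pileup was 1.55 times DMSO with ATRA, past the limit, and 0.96 times with the combination, close to DMSO.

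Between HBS1L and MYB, where the known distal enhancers of MYB lie, 20 regions were found, 11 with DMSO, 16 with ATRA, 9 with Corin and 13 with the combination. These are 55%, 80%, 45% and 65% of the 20, against 70.5%, 68.6%, 61.5% and 57.8% over the genome. The region 63.5 kb upstream of MYB, at chr6:135117254-135118139, had 7.38 with ATRA and 4.0 with the combination and was called in neither of the other lists. The region 35.8 kb upstream had the same pattern, at 5.28 and 3.44.

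Other elements upstream of MYB went in different directions, and the fold of the one at 14 kb was again higher in the lists with ATRA. The region 52.1 kb upstream had a fold of 13.6, 20, 13.5 and 15.9. At 31.8 kb upstream it was 9.03 with DMSO, 6.35 with ATRA, 6.41 with Corin and 5.38 with the combination, so all treated lists were lower. At 14 kb upstream it was 2.63 with DMSO, 6.62 with ATRA and 4.89 with the combination, and the region was absent with Corin. The HBS1L promoter, 126.4 kb upstream, was the strongest region of the window, in the strongest 1.17%, 1.1%, 2.19% and 2.01%, with a fold of 18.7, 21.3, 18.3 and 19.9. HBS1L codes for a factor that rescues stalled ribosomes.

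Downstream of MYB, 2 regions differed in opposite directions on the pileup scale. The region 52.8 kb from the start, at chr6:135233793-135234545, had a pileup of 439 with DMSO (95% interval 399 to 482), 173 with ATRA (148 to 201), 191 with Corin (165 to 220) and 131 with the combination (110 to 155). All treated lists were lower than DMSO, with a centred pileup of 0.367, 0.476 and 0.267 times, while the fold was 5.69, 5.7, 3.62 and 4.08. In AHI1, the region 125.6 kb downstream, at chr6:135306102-135307378, had a pileup of 255 with DMSO (225 to 288), 734 with ATRA (682 to 789), 222 with Corin (194 to 253) and 723 with the combination (671 to 778). Its centred pileup was 2.68, 0.953 and 2.54 times DMSO, high in both lists with ATRA, and its fold was 9.53, 13.8, 9.04 and 14.

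Another AHI1 region, 133.0 kb downstream, had a fold of 4.17 with DMSO, 13.7 with ATRA, 3.43 with Corin and 5.72 with the combination, and a pileup of 67, 241, 51 and 104. ATRA alone was highest on both scales. At 163.9 kb downstream a region was called with DMSO, at 6.45, and with ATRA, at 5.73, and in neither list with Corin. Between MYB and AHI1, 7 of the 8 regions called with both DMSO and the combination were at least 1.5 times lower in the combination on the centred pileup scale, against 19.4% over the genome. On the centred fold scale 2 of the 8 were, against 12.1%.

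**Figure D3:**
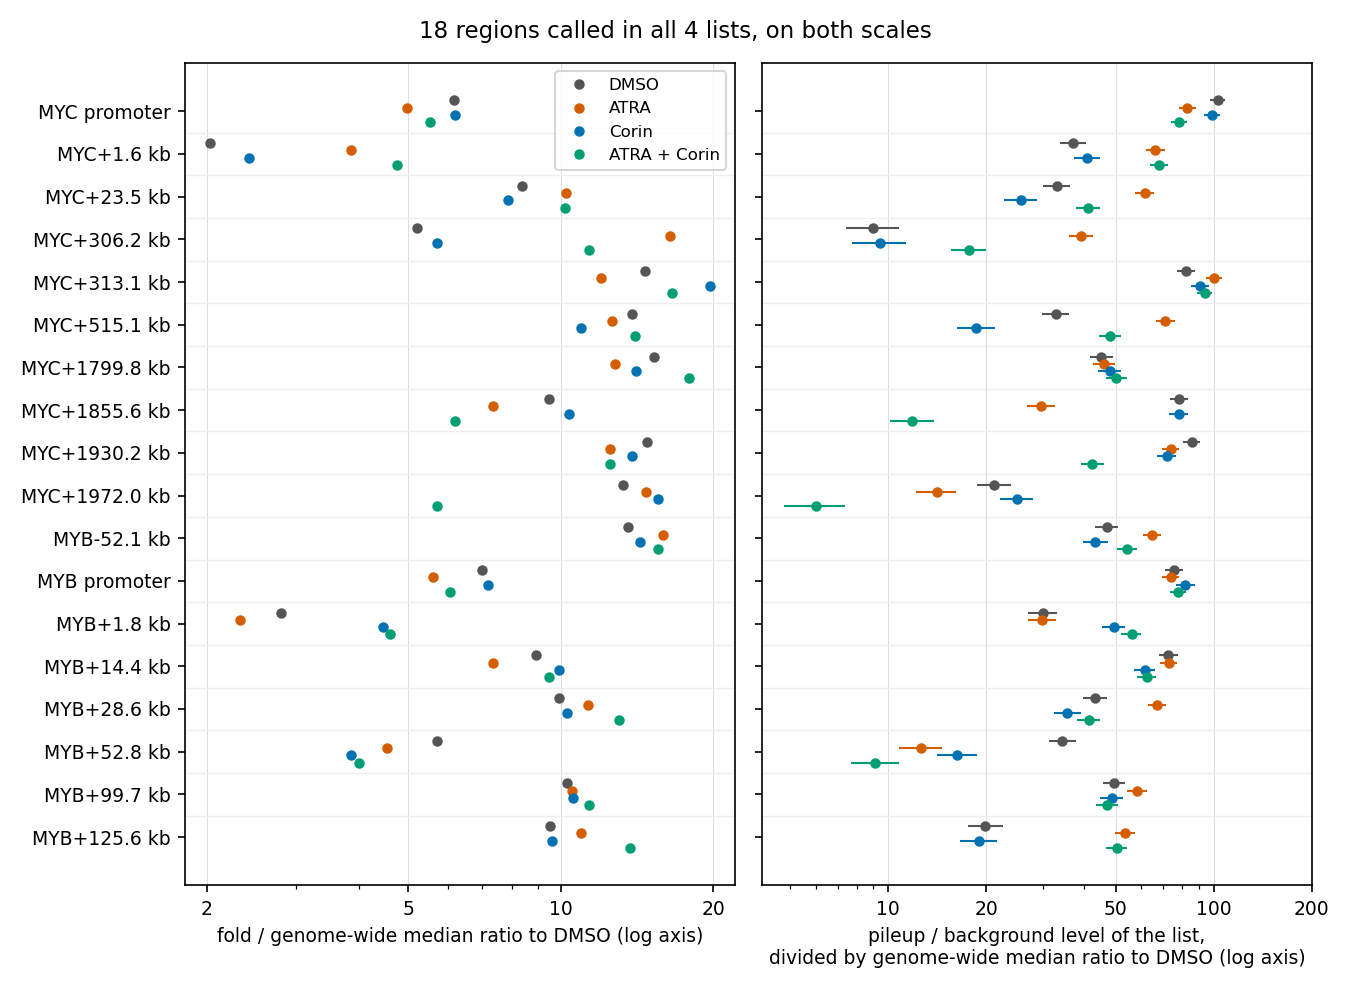
Fold (left) and pileup relative to the most frequent background of the list (right), both on log axes and both divided by the genome-wide median ratio to DMSO, for 18 regions called in all 4 lists that were chosen after their values were seen; bars on the right are exact 95% Poisson intervals, which cover counting error only. The first introns, MYC+1.6 kb and MYB+1.8 kb, part from the promoters beside them, and at MYC+1855.6 kb, MYB+52.8 kb and MYB+125.6 kb the right panel separates the lists more than the left.

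Regions were counted within their own list, as gained when no DMSO region overlapped them and as lost when no treated region overlapped a DMSO one. With ATRA, 40 of 133 regions near MYC were gained (30.1%) and 15 of 51 near MYB (29.4%), against 23.1% over the genome. Lost were 34 of 128 near MYC (26.6%) and 11 of 46 near MYB (23.9%), against 25.3% over the genome. With Corin, 23 of 115 regions near MYC and 8 of 45 near MYB were gained, 20% and 17.8% against 17.7% over the genome. The regions lost with Corin, 37 of 128 and 9 of 46, were 28.9% and 19.6% against 28.5%, near the share over the genome for MYC and below it for MYB.

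Of the 3 treated lists, the combination lacked the most DMSO regions near MYC. Of the 128 DMSO regions, 54 were lost (42.2%), against 31.5% over the genome, and 16 of the 87 combination regions were gained (18.4%), against 16.7%. Near MYB 12 of 46 were lost (26.1%) and 10 of 43 gained (23.3%). Read against ATRA alone, the combination lacked 56 of 133 regions near MYC (42.1%) and 10 of 51 near MYB (19.6%), against 28.4% over the genome. Read against Corin alone it lacked 45 of 115 near MYC (39.1%) and 13 of 45 near MYB (28.9%), against 25%. It gained 12 of 87 and 6 of 43 over ATRA, against 15.5%, and 20 of 87 and 12 of 43 over Corin, against 20.6%. The MYC window thus kept a smaller share of its DMSO, ATRA or Corin regions in the combination list than the genome did, and no test of that difference was possible. With all lists cut to the same length, 34 of 102 DMSO regions near MYC were absent from the combination (33.3%), against 20.8% over the genome. At that length 28 of 102 were absent with ATRA (27.5%), against 18.2%, and 24 of 102 with Corin (23.5%), against 19.7%. A loss above the genome's share was thus not particular to the combination. In each list the MYC regions were weaker than those of the genome, with a median −log10 p of 28.8 against 41.9 with DMSO. How that bears on the losses was not tested.

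**Figure D4:**
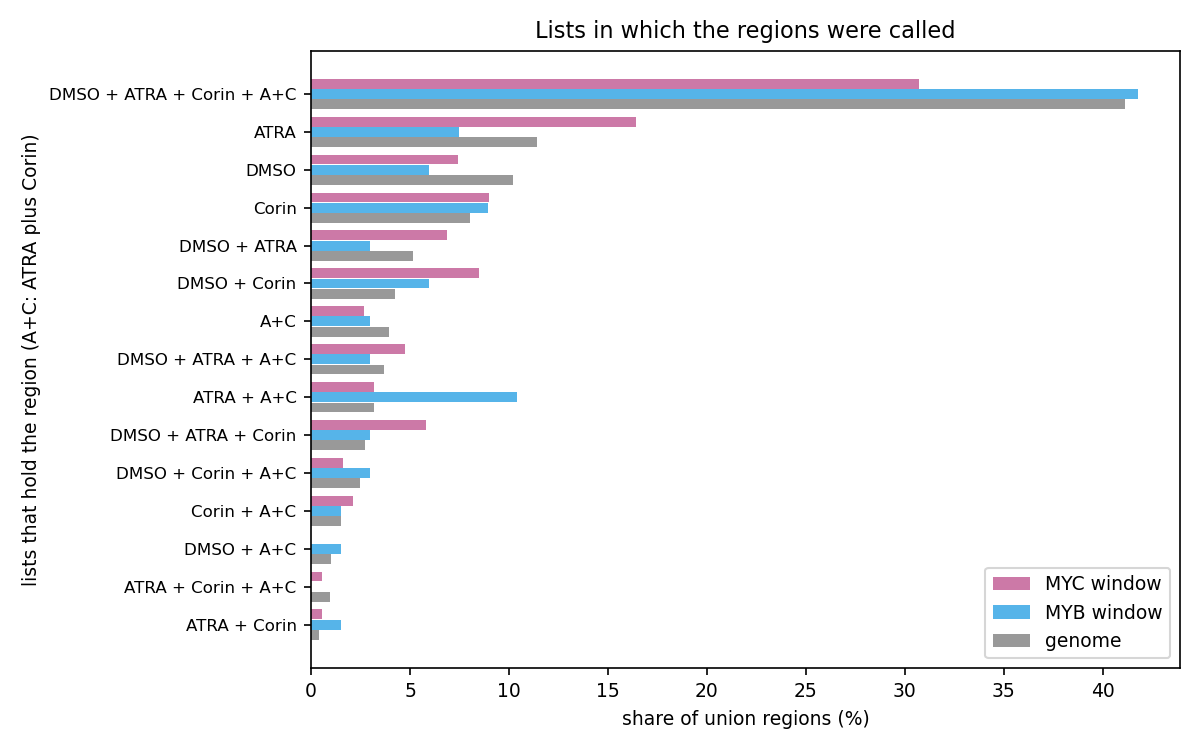
Share of union regions in percent (horizontal axis) by the set of lists that called them (vertical axis), for the MYC window, the MYB window and the genome. Regions in all 4 lists were 30.7% near MYC, 41.8% near MYB and 41.1% over the genome, and those in the ATRA and combination lists alone were 10.4% near MYB against 3.2%.

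How regions called with ATRA fared in the combination differed between the windows as counted. Near MYC 37 regions were called with ATRA and not with DMSO or Corin, and 6 of them (16.2%) were also called with the combination. Near MYB it was 7 of 12 (58.3%), and over the genome 21.9%. Of the regions called with DMSO and Corin but not ATRA, 16 of 19 near MYC (84.2%) were absent from the combination, 4 of 6 near MYB (66.7%) and 63.4% over the genome. The MYC members of the first set were mostly weak, since the median place of the 31 called with ATRA alone was the strongest 83.3%, the same as over the genome.

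Among regions called in both lists, the centred fold with ATRA was at least 1.5 times higher in 22 of 91 near MYC and 6 of 34 near MYB, against 16.6% over the genome, and at least 1.5 times lower in 11 and 2, against 8.8%. For Corin it was higher in 5 of 88 and 4 of 36, against 6.34%, and lower in 12 and 2, against 10.8%. With the combination, 9 of 70 and 4 of 33 were higher, against 8.26%, and 9 and 3 were lower, against 12.1%. On the centred pileup scale, 24 of 70 regions near MYC and 10 of 33 near MYB were at least 1.5 times lower with the combination, against 19.4% over the genome, and 5 and 4 were higher, against 12.5%. With ATRA on that scale 25 of 91 near MYC and 7 of 34 near MYB were higher, against 18.3%, and 23 and 6 were lower, against 16.4%. With Corin 8 of 88 and 3 of 36 were higher, against 10.2%, and 17 and 4 were lower, against 13.9%.

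The combination was also read against each compound alone. Against ATRA, the centred fold was at least 1.5 times higher in 1 of 74 regions near MYC and 5 of 37 near MYB, with 7.18% over the genome, and lower in 17 and 5, with 18.1%. Against Corin it was higher in 10 of 66 and 2 of 31, with 9.71%, and lower in 9 and 2, with 8.97%. On the centred pileup scale it was higher than ATRA in 3 and 3, with 12.9%, and lower in 28 and 9, with 19.8%. It was higher than Corin in 12 and 3, with 12.4%, and lower in 18 and 8, with 15.8%.

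**Figure D5:**
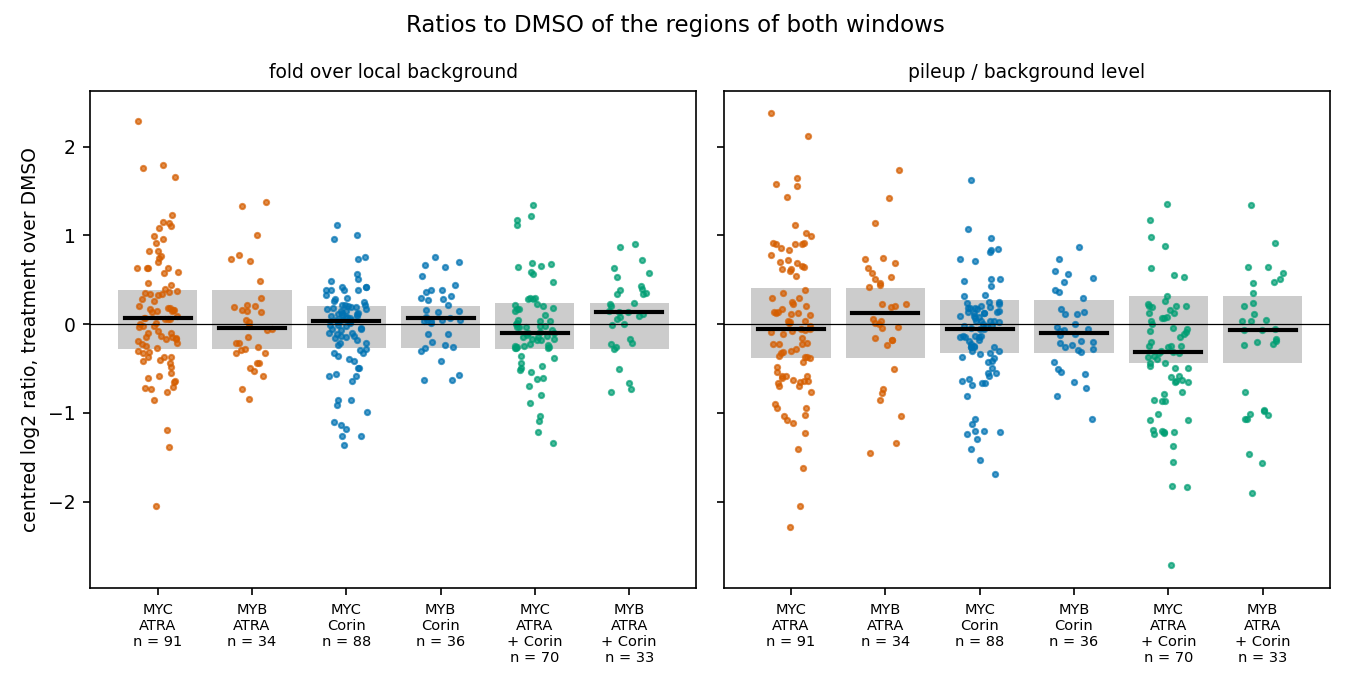
Centred log2 ratio to DMSO (vertical axis) of each region called in both lists, for each window and treatment (horizontal axis), on the fold scale (left) and the pileup scale (right); black lines are medians and grey bands the genome-wide quartiles. On the right the MYC regions with the combination have a median of -0.32 and reach -2.72, and with ATRA the points spread beyond the grey band on both sides.

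Most summits, though not all, were at nearly the same base in all lists. Among the regions called in all 4, the distance between the outermost summits had a median of 19.5 bp over 58 regions near MYC and 23 bp over 28 near MYB, against 19.0 bp over the genome. It was within 50 bp in 41 and 20 of them, 70.7% and 71.4%, a smaller share than the 80.5% over the genome. It passed 200 bp in 9 and 4 of them, 15.5% and 14.3%, against 10.7% over the genome.

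Motifs were counted in 200 bp at the summit on both strands, and a match is only a description of letters. Matches to GATA letters were in 16 of 67 regions near MYB (23.9%) and 22 of 189 near MYC (11.6%), against 8.02% over all regions. AP-1 matches were in 30 near MYC (15.9%) and 5 near MYB (7.46%), against 12.2%, and C/EBP matches in 33 (17.5%) and 16 (23.9%), against 14.5%. PU.1 matches were in 15 near MYC and 7 near MYB, against 6.73% of all regions, and RUNX matches in 34 and 18, against 20.7%. MYB matches were in 55 and 14, against 26.1%, and CTCF matches in 7 and 0, against 5.47%. A match to the RAR direct repeat with a spacer of 5 was in 1 region, 117.6 kb upstream of MYC and called in all 4 lists, against 0.0905% of all regions.

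Counted by the lists that hold them, AP-1 matches were in 1 of the 49 regions of both windows called with ATRA but with neither DMSO nor Corin (2.04%). They were in 11 of the 61 regions called with DMSO, Corin or both and in no list with ATRA (18%), and in 12 of the 86 regions of all 4 lists (14%). Over the genome the same classes had 5.55%, 15.8% and 13.5%, and the windows differed. The counts were 0 of 37, 10 of 47 and 11 of 58 near MYC and 1 of 12, 1 of 14 and 1 of 28 near MYB. PU.1 matches were in 4 of 49 (8.16%), 2 of 61 (3.28%) and 11 of 86 (12.8%), against 12.6%, 1.84% and 7.53%. C/EBP matches were in 10 (20.4%), 7 (11.5%) and 18 (20.9%), against 17.8%, 9.1% and 16.4%.

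The genes that work with MYC and MYB were looked at by their promoters, in 4 lists of genes. In the MYC and MAX network, 12 of 13 promoters were open in all 4 lists, against 66.1% of all coding genes. MAX, the partner of MYC, had a fold of 13 with DMSO, 13.8 with ATRA, 12.7 with Corin and 13.7 with the combination. MXD1, which competes with MYC for MAX, had 11.4, 14.2, 9.4 and 11.2. MYCN, a relative of MYC, was the exception, with 2.27 with DMSO and 2.01 with the combination and no call in the other lists. Ratios were read at the strongest region within 1 kb of a start of each gene, and there no fold ratio of the 13 that could be taken was past 1.5 times. MYC has a second such region, the one 1.6 kb downstream described above, which was past it with ATRA and with the combination. On the pileup scale, 3 of the network's genes were past 1.5 times at their strongest region. The centred log2 ratio was -0.6 with ATRA and 0.71 with Corin for MYCL, -0.62 with ATRA for MLXIPL and 0.74 with the combination for MLXIP. Of all coding promoters, 3.62% were higher and 3.47% lower with ATRA, 1.41% and 1.69% with Corin, and 2.7% and 2.13% with the combination.

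All 10 promoters of MYB, its relatives and its partners were open in all 4 lists, and at the strongest region of each none was past 1.5 times. For MYB the strongest region within 1 kb of an annotated start was the one 14.4 kb downstream, inside the gene, and not the promoter region described above. EP300, a co-activator that MYB binds, had 14.1, 15.4, 13.7 and 13.7. Of 10 target genes of MYC, 9 were open in all lists. TERT, which codes for the catalytic part of telomerase, had 5.02 with DMSO and 5.02 with Corin and was not called in the lists with ATRA. E2F2, a cell cycle factor, had 5.03 with DMSO, 3.36 with ATRA, 4.79 with Corin and 3.26 with the combination. Its centred log2 fold ratio was -0.92 with ATRA and -0.66 with the combination, while on the pileup scale it was -0.09 and 0.20.

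Of 10 target genes of MYB, 9 were open in all lists, and at the strongest region of each none was past 1.5 times on the fold scale; MYC, with its second region, is in this list too. The promoter of MPO, which codes for myeloperoxidase, was called in no list. CD34, a surface protein of blood progenitors, had 17 with DMSO, 20.9 with ATRA, 10.8 with Corin and 13.3 with the combination. On the pileup scale its centred log2 ratio was -0.32 with ATRA, -1.01 with Corin and -1.22 with the combination, so both lists with Corin were low. BCL2 was also past the limit on that scale, at -0.77 with ATRA.

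Local background under the peaks bears on how the folds are read. Its median was 20 with DMSO, 14.6 with ATRA, 18.3 with Corin and 19.9 with the combination in the MYC window. Each was below the median over the genome, which was 22, 18.8, 21.8 and 23.7. In the MYB window the local background had a median of 41.4, 35.1, 35.7 and 38.1, above the genome's in each list. Its part in the folds was not tested.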

How the data were processed

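ATAC-seq of U-937 was deposited as 1 narrowPeak list per group, made from 2 samples by an overlap of replicates or pseudoreplicates, per the names of the deposited files. Trimming, alignment, filtering and calling used cutadapt, Bowtie2, SAMtools, Picard and MACS2 on hg38, per the submitters' processing notes, and versions and settings are not given in the sources used here. Column 7 is the authors' fold, a ratio over local background. The deposited columns 8 and 9 are the authors' −log10 p and −log10 q, and the deposited score is capped at 1000. The lowest −log10 p was 2.79 with DMSO and 2.0 in the other lists. Read depth is not given in the sources used here.

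Peaks overlapping by at least 1 bp were merged within a list, then across lists, on 24 chromosomes. Pileup and background were solved from fold and p, with 1 added to each; 99.97%, 99.98%, 99.98% and 99.97% of pileups were whole within 0.05. The steps were tested on simulated data. GENCODE release 44 gave the genes. Peak ends lay inside hg38 on all 24 chromosomes. Python 3.11.15, numpy 2.4.6, pandas 2.3.3, scipy 1.17.1 and matplotlib 3.10.9 were used.

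Members and lists were chosen with earlier results of these data known. Named regions were the promoters; the 8 regions per window with the highest −log10 p; regions absent from a list but in the strongest 50% of another; and the 3 largest rises and falls of the centred fold per treatment. Regions outside this rule that the text names were chosen after their values were seen, as was the pileup scale: those at 2.0, 5.9, 58.3, 117.6, 306.2, 1816.3, 1845.8, 1855.6 and 1946.0 kb from MYC and at 2.7 kb from MYB. Some items of the windows and marker lists are not reported here. Chosen after their values were seen were also MAX, MXD1, EP300, CD34, MYCL, MLXIP, MLXIPL and BCL2 among the genes. Alternatives were other limits, overlaps, merging, list lengths, windows and scales. No columns of per-sample values were left out, since the lists hold none.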

Additional observations from a re-analysis of the deposited data

How the results depend on the processing

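Of 182 alternative values for 60 results, 134 stayed within 1.5 times for a count, 0.1 for a median log2 ratio or 1.1 times for a background level, and 48 moved further. No median was past the limit of 1.5 times on either scale, and 5 of the 6 changed sign on the pileup scale. The counts of regions per window stayed within 1.5 times. With lists of equal length they were 102, 103, 104 and 87 near MYC for DMSO, ATRA, Corin and the combination, so the first 3 no longer differed by more than 2, and with −log10 q of at least 5 they were 112, 132, 90 and 82. A shared floor of 2.79 on −log10 p was chosen after seeing the data and left the counts of regions and of those gained or lost as they were. With −log10 q of at least 5, 22 regions near MYC were lost with ATRA and 10 gained with Corin, when 112 were called with DMSO and 90 with Corin. Shares over the genome at that setting are not given here. With lists of equal length, 28 of 102 near MYC (27.5%) and 7 of 37 near MYB (18.9%) were lost with ATRA, against 18.2% over the genome. With Corin it was 24 of 102 near MYC (23.5%) and 5 of 37 near MYB (13.5%), against 19.7%. For the combination, 34 of 102 near MYC (33.3%) and 7 of 37 near MYB (18.9%) were lost, against 20.8%. Shorter lists hold fewer regions by construction. With folds as deposited, ATRA had 34 higher and 3 lower of 91 near MYC and 0 lower of 34 near MYB, and Corin had 2 higher of 36 near MYB. The genome's shares on folds as deposited are not given here.

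With a lower limit, a ratio of 5 to 4, the regions past it near MYC were 21 lower with ATRA, 16 higher and 20 lower with Corin, and 16 lower with the combination. Near MYB they were 9 lower with ATRA, 10 higher and 4 lower with Corin, and 12 higher with the combination. With a limit of 2 times they were 9 higher and 3 lower near MYC with ATRA, 2 and 6 with Corin, and 4 and 4 with the combination. Near MYB they were 2 and 0 with ATRA, 0 and 0 with Corin, and 0 and 0 with the combination. The regions compared for ATRA, Corin and the combination were 91, 88 and 70 near MYC and 34, 36 and 33 near MYB. Shares over the genome at these limits are not given here, so these counts show only how the calls depend on the limit.

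On the pileup scale, the regions past 1.5 times near MYC were 23 lower with ATRA, 8 higher with Corin, and 5 higher and 24 lower with the combination. Near MYB they were 6, 4 and 10 lower with ATRA, Corin and the combination. The totals and the shares over the genome are given above. The median centred log2 ratio on that scale was -0.06 near MYC and 0.13 near MYB with ATRA, -0.10 near MYB with Corin, and -0.32 near MYC and -0.07 near MYB with the combination, against 0.07, -0.04, 0.07, -0.10 and 0.14 on the fold scale. The cause was not tested. Outside promoters the median background was 17.9, 12.6 and 17.8 near MYC with DMSO, ATRA and the combination, and 37.6 near MYB with DMSO. In 300 bp windows GFI1 matches were in 6 regions. No paired analysis was possible because each list pools the samples of its group, and leaving out a replicate was not run for the same reason. How depth bears on weak regions was not tested, since read depth is not given in the sources used here.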
